A study of Homo sapiens with 6 samples.

Results

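The 9 genes EREG, IL13RA2, TNC, LTBP1, FSCN1, KYNU, ROBO1, MAN1A1 and LY6E belong to a signature linked to the ability of MDA-MB-231 cells to colonise the lung, and were taken by name from a count table of 58733 genes. Each name matched a single entry. MDA-MB-231 is an established human triple-negative breast cancer line, and the labels name no subline selected for growth in the lung. Treatment lasted 72 h and consisted of DMSO, the solvent control, or of Azeliragon at 2 µM, which blocks RAGE, a cell surface receptor for glycated proteins and S100 proteins. Both conditions shared the same serum-supplemented medium, and each had 3 libraries of polyadenylated RNA, lettered a, b and c. Nothing in the labels ties the libraries to separate cultures, so the p-values reflect the spread among these libraries alone, possibly a technical one. The comparison asks whether transcripts of the signature differed between Azeliragon and DMSO. Inhibition of RAGE itself was not measured in these libraries.

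Lung metastasis signatures of this line come from comparing cells that were repeatedly recovered from lungs with the line they descend from, so their genes have diverse functions. Some products act outside the cell, such as the growth factor epiregulin, the matrix protein tenascin-C and a protein that stores latent TGF-beta. Others are surface receptors, an actin-bundling protein, and enzymes of tryptophan breakdown and sugar trimming. Epiregulin and tenascin-C are known from mouse models to help breast cancer cells leave vessels and survive in the lung.

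Of the 9 genes, 8 had enough reads to be tested and none of the 8 passed an adjusted p of 0.05 (edgeR's quasi-likelihood F test, Benjamini-Hochberg over 16081 genes), where 6.27% of all genes tested passed, 2.75% higher and 3.53% lower with Azeliragon. DESeq2 also called 0 members, where 9.39% of its genes with an adjusted p passed. At an unadjusted p under 0.05, 3 members, EREG, LTBP1 and LY6E, were lower with Azeliragon and 0 were higher, and 20.4% of all genes met this in either direction (10.5% lower). The 3 Azeliragon values lay below all 3 DMSO values for EREG, TNC, LTBP1 and LY6E and overlapped for the other 4 genes, and 25.3% of all genes did not overlap (13.2% lower). The log2 fold change was below 0 for 6 of the 8 members, as for 50.9% of all genes, and the median of the 8 was -0.21, beside 0.00 over all genes tested. With so few members, chosen with earlier results of these data known, these counts are a description only. Whether the members differ from the other genes was not tested.

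The libraries held 41455979 to 44313584 counts, so 1 read stood for 0.0222 to 0.0241 CPM (counts relative to the library total, scaled by TMM factors). VIM and CD44, expected in this line, held at least 74789 and 24786 reads per library, and of the markers that should be lacking PGR had 0 reads and CDH1 1 read in all. ESR1, the estrogen receptor, had 0, 0 and 5 reads in DMSO a, b and c and 10, 9 and 14 in Azeliragon a, b and c, so it was near 0 throughout but did not overlap between conditions. On the first principal component DMSO a lay at -0.23, far from DMSO b and c at 30.1 and 33.7, while the Azeliragon libraries lay between -23.0 and -19.0. Marker sums of other cell types were 0.138 to 0.395 CPM for 5 leukocyte genes over all 6 libraries. For 5 lung epithelium genes they were 6.18 to 7.62 CPM in DMSO and 5.98 to 6.33 CPM with Azeliragon. Both sums overlapped between conditions. AGER, which encodes RAGE, made up most of the lung epithelium sum, with 257 to 323 reads per library. SFTPC, NKX2-1 and SCGB1A1 had 0 reads. The sum of 5 fibroblast markers was lower with Azeliragon (5.06 to 6.47 CPM) than in DMSO (8.62 to 9.04), with PDGFRA and FAP at 0 reads and DCN at 3 in all. Within it COL1A1, a collagen chain, fell 1.70-fold (edgeR adjusted p = 0.00306, at most 0.0296 without any single library). The sum of 4 endothelial markers was higher with Azeliragon (5.96 to 6.29 CPM) than in DMSO (3.08 to 4.50). There KDR, a VEGF receptor, rose 1.63-fold (edgeR adjusted p = 0.0324), a call lost when any library except DMSO a was left out (up to 0.124). The part of these shifts in the members' values was not tested. Among DMSO libraries, DMSO a was highest for 6 of the 8 members (EREG, TNC, LTBP1, KYNU, ROBO1 and MAN1A1), and 40.3% of all genes tested were highest there.

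The sequences just upstream of 4 members are shown because these genes span the range of the results: EREG had the smallest p, TNC the highest level among members with a window shown, LTBP1 the next largest decrease, and KYNU the lowest CPM. Each line gives the 250 bases before the RefSeq start site, 5′ to 3′ on the strand of the gene (GRCh38.p14), with matches to the searched motifs in capitals. The gene coordinates given further below are from GENCODE 29, whose starts differ from those of RefSeq. By these, part of the TNC and KYNU windows, with the KYNU TATAAA, and the last bases of the EREG window lie inside the gene.
EREG (chr4:74364895-74365144, plus strand): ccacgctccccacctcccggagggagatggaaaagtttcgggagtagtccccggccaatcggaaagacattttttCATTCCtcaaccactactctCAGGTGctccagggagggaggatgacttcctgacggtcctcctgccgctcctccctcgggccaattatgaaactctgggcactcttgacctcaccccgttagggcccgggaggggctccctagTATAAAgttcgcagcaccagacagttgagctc
TNC (chr9:115118158-115118407, minus strand): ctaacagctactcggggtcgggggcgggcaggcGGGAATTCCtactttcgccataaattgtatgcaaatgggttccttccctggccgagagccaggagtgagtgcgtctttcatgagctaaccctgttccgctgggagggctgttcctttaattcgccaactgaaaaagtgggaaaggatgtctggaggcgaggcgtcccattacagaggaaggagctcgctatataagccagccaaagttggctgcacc
LTBP1 (chr2:32946703-32946952, plus strand): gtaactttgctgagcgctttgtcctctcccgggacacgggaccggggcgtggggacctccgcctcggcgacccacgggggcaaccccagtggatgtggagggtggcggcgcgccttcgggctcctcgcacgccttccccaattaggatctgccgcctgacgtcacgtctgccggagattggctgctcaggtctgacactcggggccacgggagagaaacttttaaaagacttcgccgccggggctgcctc
KYNU (chr2:142877414-142877663, plus strand): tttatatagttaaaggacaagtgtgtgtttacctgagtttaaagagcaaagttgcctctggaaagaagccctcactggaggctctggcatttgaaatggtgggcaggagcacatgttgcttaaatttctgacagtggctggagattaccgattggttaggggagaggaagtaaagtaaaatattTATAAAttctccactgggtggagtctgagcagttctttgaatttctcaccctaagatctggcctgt

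Windows of 6 members were searched on both strands for the AP-1 motif TGANTCA, the SNAIL-type E-box CAGGTG, the TEAD motif GGAATG and the NF-kB motif GGGNNTTCC, and on the gene's strand for the TATA box TATAAA. The EREG window held TATAAA 32 bases before the start, an E-box at 155 bases and, on the opposite strand, the TEAD motif at 175 bases. Of 35116 RefSeq windows of the same length, 6.80% held TATAAA, 17.5% the E-box and 11.9% the TEAD motif. TNC held the NF-kB motif 217 bases before its start, as did 5.78% of all windows, and KYNU held TATAAA at 66 bases. The searched letters were not in the windows of LTBP1 or MAN1A1, and 1 of the ROBO1 windows held the E-box at 189 bases on the opposite strand. None of the 6 members held TGANTCA, which 6.57% of windows held, and no matches overlapped each other. CpG pairs numbered 1 in the KYNU window, 11 in EREG, 12 in TNC and 40 in MAN1A1, beside a median of 11 over all windows. The LTBP1 window shown held 24 and the other 2 of LTBP1 held 6 each, and the ROBO1 windows held 12 and 9. These matches describe letters only, and binding was not measured.

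Divided by transcript length, the members covered a wide range of levels in DMSO. Per kb of the longest principal transcript, LY6E stood at 48.1 ± 5.0 CPM and TNC at 39.9 ± 6.1 CPM (SD, n = 3), and their library values overlapped. Over the shortest principal transcript of LY6E (740 bases) its level was 92.2 ± 9.6 CPM per kb, with every value above the highest of TNC (47.0), so that overlap depends on the LY6E transcript used. FSCN1 (5.46 ± 0.34 CPM per kb) and LTBP1 (4.90 ± 0.30) overlapped as well, from 5.18 to 5.83 and from 4.61 to 5.21. EREG followed at 3.92 ± 0.47 CPM per kb, with no value above 4.39, then MAN1A1 at 1.56 ± 0.29 and ROBO1 at 0.205 ± 0.028. KYNU was lowest of the tested genes at 0.0521 ± 0.0034 CPM per kb over its principal transcript of 15316 bases, but at 0.506 ± 0.033 over that of 1576 bases it lay above ROBO1. Over the longest principal transcripts, LY6E and TNC were above 89.3% and 87.2% of genes tested, EREG near the middle (49.3%) and ROBO1 above 7.55%.

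**Figure D1:**
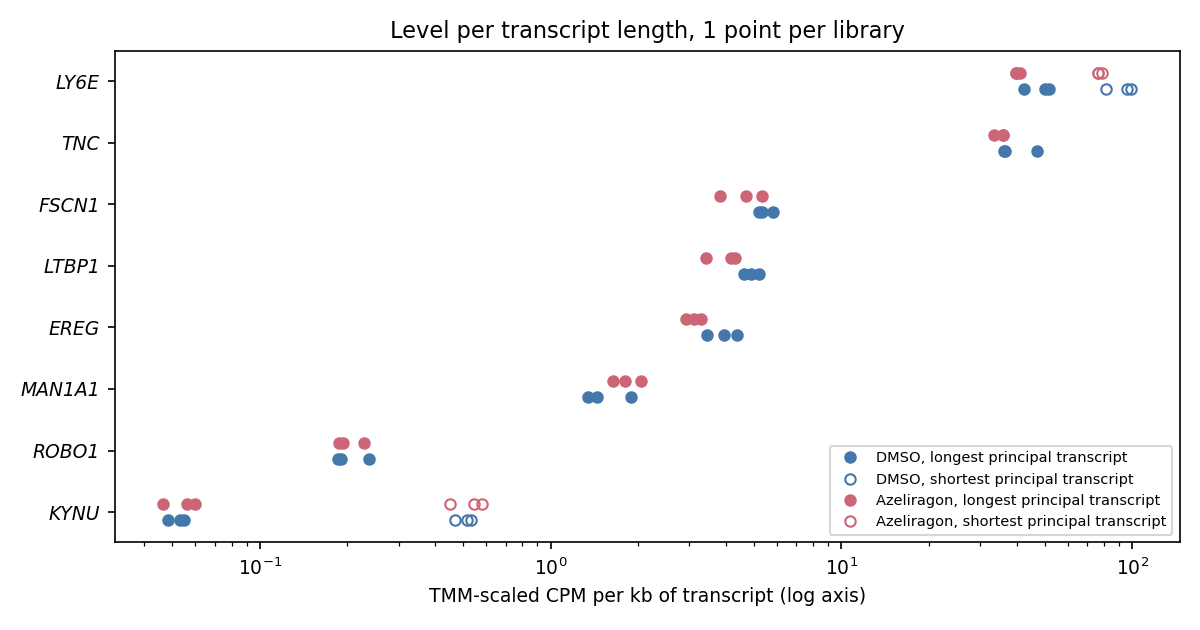
TMM-scaled CPM per kb of transcript on a log axis for the 8 tested members, with 1 point per library (blue DMSO, red Azeliragon); open points use the shortest principal transcript where its length differs. LY6E and TNC form the top pair, with filled points between 33.6 and 51.8 CPM per kb and open LY6E points above them, and KYNU and ROBO1 the bottom, whose order depends on the KYNU transcript used.

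EREG encodes epiregulin, a ligand that activates the EGF receptor family after it is shed from the cell surface. It lies on chromosome 4 at 74365143 to 74388751 (GRCh38, GENCODE 29). Its level was 20.3, 18.2 and 15.9 CPM in DMSO a, b and c, from 915, 785 and 687 reads, and 13.5, 15.2 and 14.4 CPM in Azeliragon a, b and c. All 3 Azeliragon values lay below the lowest DMSO value, but the DMSO libraries spread more widely (CV 12.0%) than the Azeliragon libraries (5.96%). The fitted decrease was 1.26-fold (log2 fold change -0.34, SE 0.11, 95% interval -0.57 to -0.11) and did not pass (edgeR adjusted p = 0.0859). It passed without DMSO c, the lowest DMSO library (adjusted p = 0.0248), and without any other single library the adjusted p lay between 0.0723 and 0.289.

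Of 13 ERBB ligands, receptors, sheddases and feedback genes tested beside EREG, 2 rose, 1 fell and 10 did not pass. Over all genes tested, 2.75% rose and 3.53% fell, the shares to set beside this and the later list counts. Because the lists were chosen with earlier results of these data known, such comparisons are a description and not a test. The ligand TGFA fell 1.59-fold, with 72.8 ± 4.6 CPM in DMSO and 45.7 ± 1.7 CPM with the drug (SD, n = 3; edgeR adjusted p = 0.000183), a call that held without any single library. EGFR, the receptor for both ligands, rose by 0.58 on the log2 scale, from 116 ± 28 to 174 ± 8.8 CPM (adjusted p = 0.0174 in the same test). ERRFI1, a feedback inhibitor of EGFR, rose 1.24-fold. Both of these calls were lost when DMSO b, or any of the Azeliragon libraries, was left out (adjusted p up to 0.116 and 0.0729), and both genes overlap an antisense gene. The ligands AREG (log2 fold change -0.34, adjusted p = 0.0868) and BTC (-1.34, adjusted p = 0.0539) were named after their values were seen, and the abundant HBEGF (0.05), also named after, did not pass either.

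IL13RA2 encodes the decoy receptor for interleukin 13, which binds the cytokine with high affinity and lacks a long signalling tail. On chromosome X at 115003975 to 115019977, it had 0 reads in 5 libraries and 1 read in Azeliragon b. A limit of 3 reads corresponds to 0.0665 to 0.0723 CPM per library, so the transcript was not detectable at this depth in DMSO and a change could not be tested. The signalling receptor subunits, named after their values were seen, were present, with IL13RA1 at a mean of 61.5 CPM and IL4R at 48.8 CPM in DMSO. Of 10 other IL-4 and IL-13 pathway genes tested, STAT6, the transcription factor of the pathway, rose 1.20-fold and SOCS1, an inhibitor of cytokine signalling, fell 1.46-fold (edgeR adjusted p = 0.0275 and 0.0349), while 8 did not pass. Both calls were lost without Azeliragon a, Azeliragon c or DMSO b, that of STAT6 also without Azeliragon b and that of SOCS1 without DMSO c (adjusted p up to 0.179 and 0.173). TYK2, the most abundant gene of the list, had a log2 fold change of 0.07 (adjusted p = 0.557).

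ROBO1, a receptor for SLIT guidance proteins on chromosome 3 at 78597240 to 79767815, was weakly expressed. It had 60, 45 and 46 reads in DMSO a, b and c and 45, 47 and 53 in Azeliragon a, b and c, and the conditions overlapped from end to end. Its level was 1.15 ± 0.16 CPM in DMSO libraries and 1.13 ± 0.13 CPM in Azeliragon libraries (SD, n = 3 each). The log2 fold change was -0.02 with a 95% interval of -0.58 to 0.55 (edgeR adjusted p = 0.983), so a rise of up to 1.46-fold or a decrease to 0.668 of the DMSO level lay within the interval. Of 14 other SLIT and ROBO pathway genes tested, 2 rose and none fell. ROBO4, a relative best known from endothelium, rose 1.25-fold from 95.4 ± 2.1 to 120 ± 1.0 CPM (edgeR adjusted p = 0.00627), a call lost without Azeliragon c (0.0594), and it overlaps antisense genes. SRGAP1, a partner of ROBO receptors inside the cell, rose 1.41-fold (adjusted p = 0.0351), a call lost when any library except DMSO a was left out (up to 0.174) and with scaling by library totals. The endothelial markers PECAM1, CDH5, VWF and KDR summed to 3.08 to 4.50 CPM in DMSO and 5.96 to 6.29 CPM with Azeliragon, mostly from KDR. Their part in the ROBO4 difference was not tested.

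**Figure D2:**
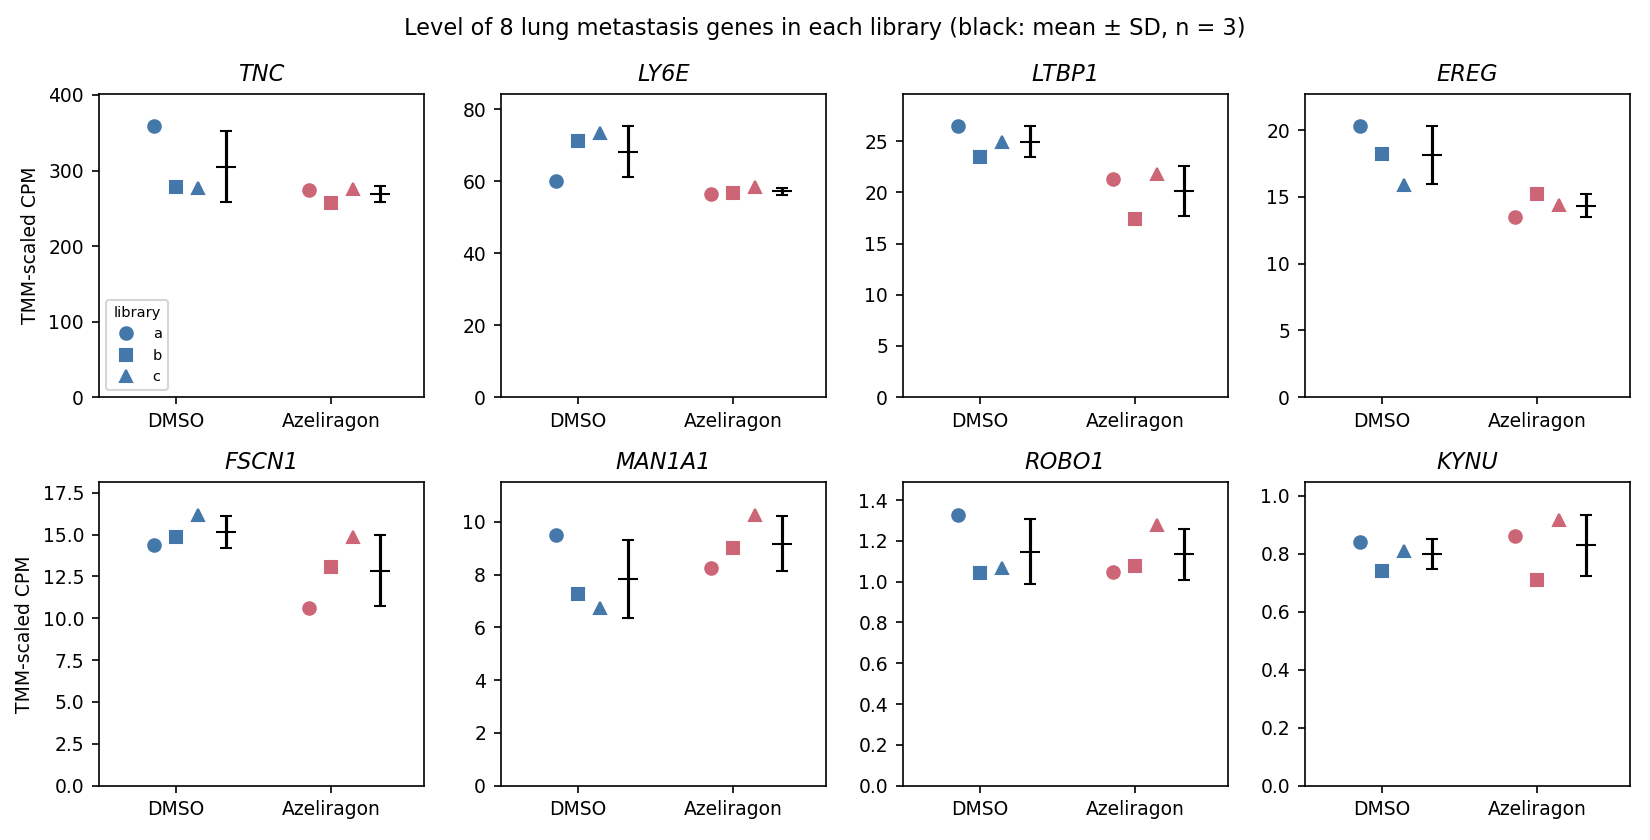
TMM-scaled CPM of the 8 tested members in every library, by condition, with libraries a, b and c as circles, squares and triangles and the mean ± SD (n = 3) in black beside them. All 3 Azeliragon points lie below the DMSO points for TNC, LY6E, LTBP1 and EREG, and DMSO a is the highest point for TNC, LTBP1, EREG and ROBO1.

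TNC encodes tenascin-C, a large matrix glycoprotein that binds integrins and is abundant in metastatic niches. The gene lies on chromosome 9 at 115019578 to 115118257. It was the member with the most reads, 16202, 12028 and 11973 in DMSO a, b and c and 11761, 11181 and 11419 in Azeliragon a, b and c. The scaled levels were 359, 279 and 277 CPM in DMSO and 274, 256 and 275 CPM with Azeliragon. The groups did not overlap, but DMSO b and c lay close above the Azeliragon libraries, while DMSO a was 29.1% above the mean of DMSO b and c. The decrease was 1.14-fold (log2 fold change -0.18, SE 0.09, 95% interval -0.39 to 0.02; edgeR adjusted p = 0.295). Without DMSO a it shrank to -0.05 on the log2 scale (adjusted p = 0.499), so that most of the difference came with that library.

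Of 7 other tenascins and tenascin receptors tested, 1 fell and 6 did not pass. ITGA2, an integrin subunit for collagen and tenascin, fell 1.48-fold, with means of 28.1 ± 4.7 in DMSO and 19.0 ± 1.7 CPM with the drug (SD, n = 3; edgeR adjusted p = 0.0148), a call lost when DMSO b, or any of the Azeliragon libraries, was left out (up to 0.0944). ITGB1, the most abundant receptor subunit of the list, had a log2 fold change of 0.04 (adjusted p = 0.814).

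LTBP1 encodes a protein that anchors latent TGF-beta in the matrix until it is activated. It lies on chromosome 2 at 32946972 to 33399509. Its level was 26.5, 23.4 and 24.9 CPM in DMSO a, b and c, from 1196, 1012 and 1074 reads, and 21.3, 17.4 and 21.8 CPM in Azeliragon a, b and c. All Azeliragon values lay below the DMSO values, with Azeliragon b lowest. The decrease was 1.24-fold (log2 fold change -0.31, SE 0.10, 95% interval -0.53 to -0.09; edgeR adjusted p = 0.105). It stayed short of the threshold without any single library (adjusted p from 0.0539 to 0.364).

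Among 14 other genes of the latent TGF-beta complex, its ligands and receptors, 3 fell, 1 rose and 10 did not pass. LTBP3, a relative of LTBP1, fell 1.57-fold, with means of 12.6 ± 1.6 in DMSO and 8.03 ± 0.95 CPM with the drug (SD, n = 3; edgeR adjusted p = 0.00853), a call lost without Azeliragon a or b (up to 0.0686). The ligand TGFB1 fell as well, and its call held without any single library (adjusted p = 0.00290, at most 0.0365). TGFB2, another ligand, rose 1.37-fold (adjusted p = 0.0356), a call lost when any library except DMSO a was left out (up to 0.177) and with scaling by library totals. ITGB5, an integrin subunit of TGF-beta activating receptors, fell 1.25-fold (adjusted p = 0.00899), a call lost without any single Azeliragon library (up to 0.0847). TGM2, a transglutaminase that crosslinks the complex to the matrix, was the most abundant of the list at 2313 ± 166 and 2006 ± 86 CPM and did not pass (adjusted p = 0.0999).

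FSCN1 encodes fascin, which bundles actin filaments in filopodia and invasive protrusions. It lies on chromosome 7 at 5592823 to 5606655. Its level was 14.4, 14.9 and 16.2 CPM in DMSO a, b and c, from 650, 641 and 699 reads, and 10.6, 13.1 and 14.9 CPM in Azeliragon a, b and c. Azeliragon c lay inside the DMSO range and Azeliragon a well below it, so the groups overlapped. The log2 fold change was -0.24 (SE 0.12, 95% interval -0.50 to 0.03; edgeR adjusted p = 0.299), and it moved between -0.36 without Azeliragon c and -0.12 without Azeliragon a. Like LY6E, FSCN1 was lowest in DMSO a among the DMSO libraries.

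Of 20 other genes of actin bundling and filopodia tested, 3 rose, 1 fell and 16 did not pass. LCP1, the plastin that bundles actin in leukocytes and many tumour cells, rose 1.66-fold, with means of 62.3 ± 0.39 in DMSO and 104 ± 4.0 CPM with the drug (SD, n = 3; edgeR adjusted p = 3.89e-05). LIMK1, the kinase that inactivates cofilin, fell 1.43-fold from 199 ± 5.7 to 139 ± 5.0 CPM (adjusted p = 0.000370 in the same test). Both calls held without any single library. The crosslinker ACTN1 rose 1.24-fold and ENAH, an actin elongation factor, 1.29-fold (edgeR adjusted p = 0.00577 and 0.0254). The ACTN1 call was lost without Azeliragon c or DMSO b (up to 0.0621), and that of ENAH when any library except DMSO a was left out (up to 0.119) and with the length trend removed. ACTN4, the most abundant of the list, did not pass (log2 fold change 0.18, adjusted p = 0.0944). The leukocyte markers PTPRC and CD3E had 3 reads and 0 reads in all 6 libraries.

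KYNU encodes kynureninase, which cleaves kynurenine and hydroxykynurenine on the path from tryptophan to NAD. It lies on chromosome 2 at 142877498 to 143055832. Only 38, 32 and 35 reads were counted in DMSO a, b and c and 37, 31 and 38 in Azeliragon a, b and c, and the conditions overlapped throughout. The level was 0.798 ± 0.051 CPM in DMSO libraries and 0.829 ± 0.11 CPM in Azeliragon libraries (SD, n = 3). The fitted log2 fold change was 0.05, with a 95% interval of -0.61 to 0.71 (edgeR adjusted p = 0.946). At this depth the interval holds a rise of up to 1.64-fold. Azeliragon libraries held 50.2% of the 211 KYNU reads (exact 95% binomial interval 43.3% to 57.2%), where their share of the scaled depth was 49.3%. The interval covers counting error only. None of the 8 other genes of tryptophan breakdown and uptake that were tested passed. The abundant tryptophan transporter subunit SLC7A5 had a log2 fold change of -0.03 (adjusted p = 0.840).

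MAN1A1 encodes a Golgi mannosidase that trims N-glycans before they are branched. It lies on chromosome 6 at 119177209 to 119349761. Its level was 9.50, 7.25 and 6.72 CPM in DMSO a, b and c, from 429, 313 and 290 reads, and 8.24, 9.01 and 10.3 CPM in Azeliragon a, b and c. DMSO a lay inside the Azeliragon range, whereas DMSO b and c lay below it. The log2 fold change was 0.23 (SE 0.14, 95% interval -0.09 to 0.54; edgeR adjusted p = 0.415). Without DMSO a it was 0.39 and passed (adjusted p = 0.0287), in a fit in which 23.7% of all genes passed.

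Of 17 other genes of N-glycan trimming and branching tested, 1 rose, 2 fell and 14 did not pass. FUT8, which adds the core fucose, fell 1.41-fold, with means of 59.9 ± 3.0 in DMSO and 42.5 ± 2.2 CPM with the drug (SD, n = 3; edgeR adjusted p = 0.00177), a call that held without any single library, although an antisense gene overlaps it. MAN1B1, a mannosidase that acts before MAN1A1 in the pathway, fell 1.19-fold and MAN2A2, a mannosidase that acts after it, rose 1.35-fold (adjusted p = 0.0329 and 0.0257). Both calls were lost when any library except DMSO a was left out (up to 0.179 and 0.152), and that of MAN1B1 also with the replicate block. GANAB, a glucosidase subunit and the most abundant of the list, had a log2 fold change of 0.11 (adjusted p = 0.389).

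LY6E encodes a small surface protein held by a lipid anchor, known as an interferon-induced gene. It lies on chromosome 8 at 143017982 to 143023832. Its level was 60.1, 71.1 and 73.5 CPM in DMSO a, b and c, from 2715, 3071 and 3170 reads, and 56.5, 56.6 and 58.4 CPM in Azeliragon a, b and c. The Azeliragon libraries lay close together (CV 1.89%), and DMSO a was the DMSO library nearest to them, 16.8% below the mean of DMSO b and c. The decrease was 1.19-fold (log2 fold change -0.25, SE 0.08, 95% interval -0.43 to -0.08; edgeR adjusted p = 0.0946). Without DMSO a the log2 fold change was -0.34 (adjusted p = 0.000154), in a fit in which 23.7% of all genes passed. Without any other single library the adjusted p was 0.222 to 0.330. Of 8 other genes of the LY6 and uPAR domain family tested, LY6K rose 1.85-fold, with means of 1.39 ± 0.30 in DMSO and 2.58 ± 0.32 CPM with the drug (SD, n = 3; adjusted p = 0.0364), and 7 did not pass. The LY6K call was lost when DMSO b, or any of the Azeliragon libraries, was left out (up to 0.156) and with the replicate block, and most of its exon sequence overlaps an antisense gene. PLAUR, the urokinase receptor and the most abundant of the family, had a log2 fold change of 0.11 (adjusted p = 0.454).

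**Figure D3:**
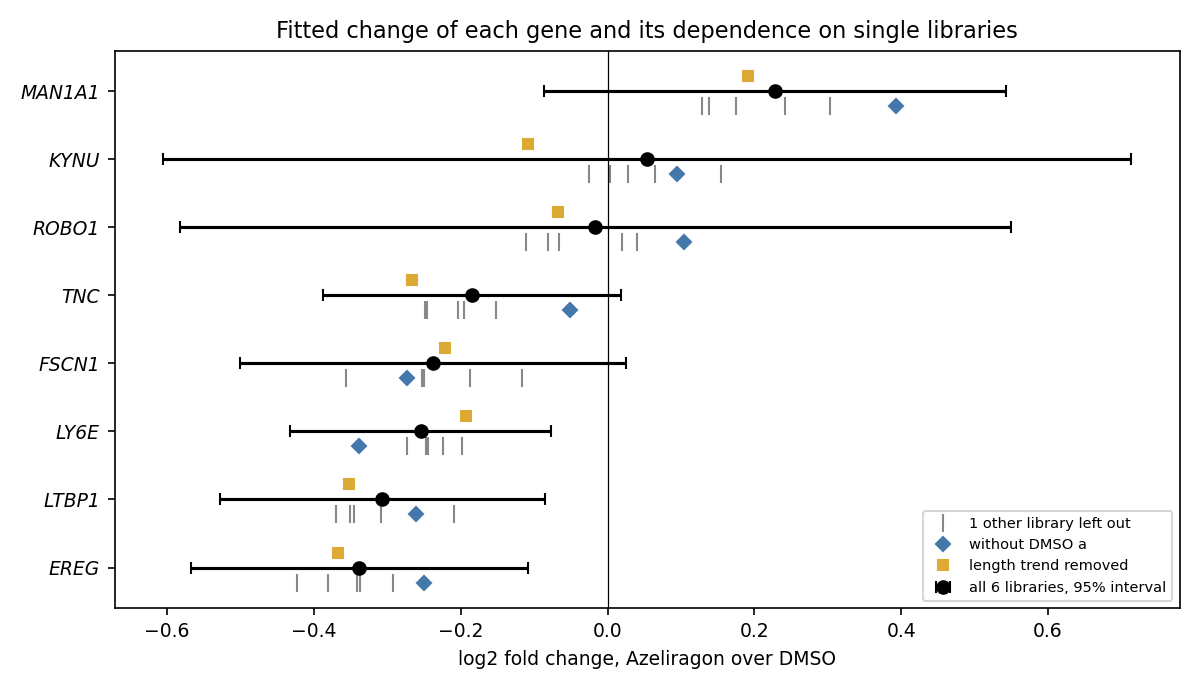
Log2 fold change of each tested member (Azeliragon over DMSO) with its 95% interval from all 6 libraries (black), the estimates with 1 library left out (grey ticks; blue diamonds without DMSO a) and with the length trend removed (yellow squares). Intervals of EREG, LTBP1 and LY6E lie below 0, TNC moves to -0.05 and MAN1A1 to 0.39 without DMSO a, and the intervals of KYNU and ROBO1 are the widest.

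Other genes of the lung metastasis signature were listed beside the members, with earlier results of these data known. Values of this list beside those of all genes are therefore a description and not a test. Of 12, 9 could be tested, of which 4 fell, 1 rose and 4 did not pass, where 3.53% of all genes tested fell and 2.75% rose. The median log2 fold change of the 9 was -0.65, beside -0.004 over all genes tested. ANGPTL4, a secreted lipase inhibitor, ID1 and ID3, inhibitors of helix-loop-helix factors, and the collagenase MMP1 were among the 5, at log2 fold changes of -1.58, -1.10, -0.65 and 2.38. Their edgeR adjusted p was 0.000115, 4.99e-05, 0.00938 and 1.14e-05 in this order. MMP1 was weakly expressed in DMSO (1.35 ± 0.15 CPM). The remaining call was the chemokine CXCL1 (-0.59), outside the rule for naming genes and named after its values were seen. ID3 did not pass once Azeliragon a, Azeliragon c or DMSO b was left out (adjusted p up to 0.0645). MMP1 and ANGPTL4 overlap a gene on the opposite strand. Whether these genes differ from the 9 members as a group was not tested.

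**Figure D4:**
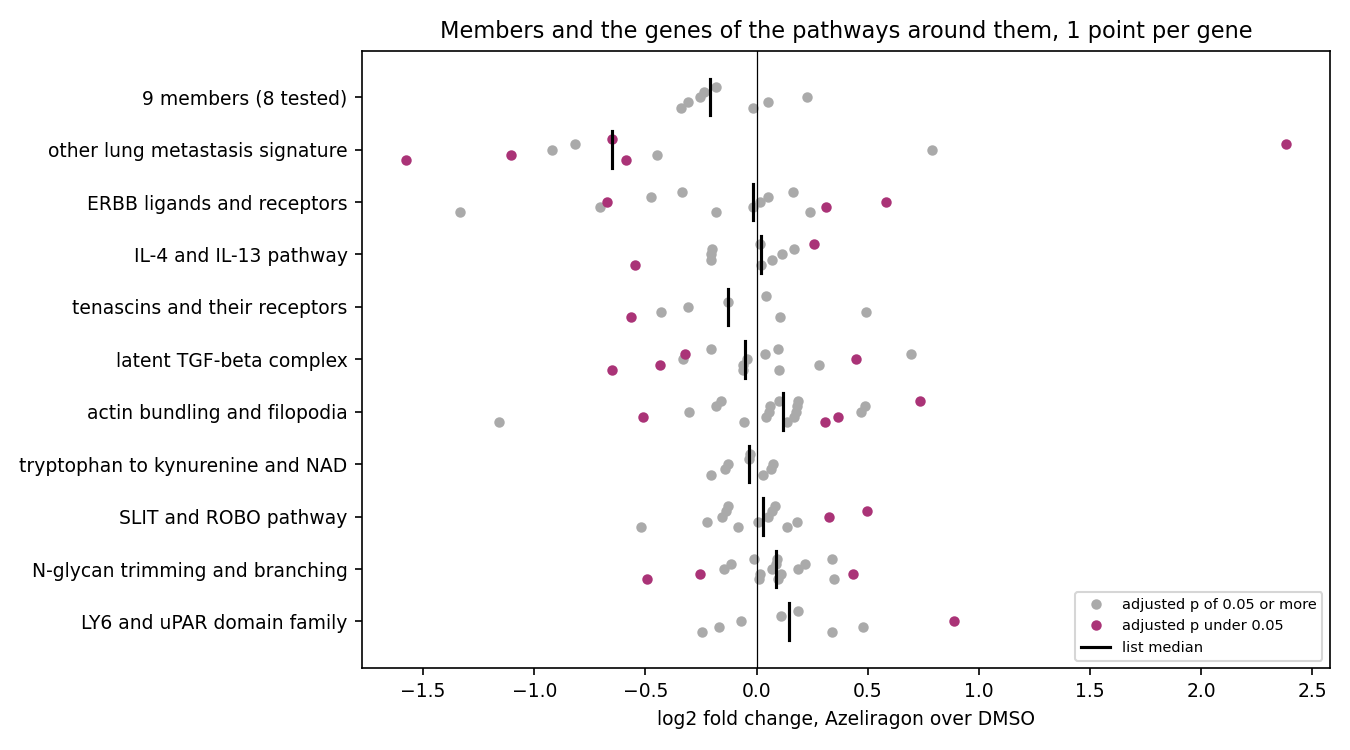
Log2 fold change (Azeliragon over DMSO) of the members and of the genes tested in 10 lists around them, with 1 point per gene, purple where the adjusted p was under 0.05, and the list median as a black bar. The 8 members lie between -0.34 and 0.23 with no purple point, and the other signature genes run from -1.58 to 2.38.

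Of 24 pathway genes that passed and were named by the rule, 8 passed whichever single library was left out and 16 did not. Exons of 11 of the 24, not all of them marked above, overlap a gene on the opposite strand, so their counts are uncertain. The count over all genes was 3916 without DMSO a and 445 to 819 without any other library, where 1009 passed with all 6. Its link to these single-library dependences was not tested.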

How the data were processed

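RNA sequencing of 6 libraries of MDA-MB-231 cells, 3 per condition, was summarised by the authors as raw counts per gene, deposited as whole numbers. Per the submitters' processing notes, the tools were featureCounts 1.5.0-p3, STAR 2.6.1d and limma, and the build was GRCh38, with no roles stated. The strand setting, annotation and handling of multi-mapping reads: not given in the sources used here. It is therefore not known whether reads of genes overlapping on opposite strands were kept apart. Exons of LTBP1, TNC, LY6E, MAN1A1 and KYNU overlap a gene on the opposite strand by 79 to 249 bases, and those genes had at most 26 reads in all.

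Of 58735 entries, 2 whose names were bare numbers were dropped (0% of the counts), and 58722 had a GENCODE 29 name. Genes were kept with filterByExpr, scaled by TMM and compared with glmQLFit and glmQLFTest of edgeR 4.0.16 in R 4.3.3, with a treatment term alone. The threshold was an adjusted p of 0.05 over 16081 genes. The 95% intervals are those of single genes, not adjusted. Levels are TMM-scaled CPM, and transcript lengths are of the longest APPRIS principal transcript, or the longest basic transcript where there is none. In the length setting, a loess trend (span 0.5) of each library's deviation on log2 length was removed, including any part that differed between conditions. Other settings were RLE factors, library totals, no filter, 1 CPM in 3 libraries, DESeq2 1.42.0, limma-voom (limma 3.58.1), the replicate block and each library left out. The edgeR step was run on simulated data with 200 changed genes. It was set to stop unless those called had the simulated direction, so that outcome does not measure how often small changes are detected.

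The members and lists were chosen with earlier results of these data known. The rule for naming genes took all members and, from each pathway list, up to 4 called genes with the largest change and the most abundant gene if not called. It also took the 2 nearest profiles of each called member, of which there were none. Every pair of libraries within a condition differed by more than sampling noise (chi-square per degree of freedom at least 4.39). Figures were drawn with matplotlib 3.10.9 in Python 3.11.15, and promoter sequences are RefSeq's.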

Additional observations from a re-analysis of the deposited data

How the results depend on the processing

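No member was called with RLE factors, library totals, the filter of 1 CPM in 3 libraries, DESeq2, limma-voom or the replicate block. With no filter on low counts 2 members passed, EREG (adjusted p = 0.0447) and LY6E (0.0498), both lower, where 5.78% of genes passed. With the length trend removed 3 passed, EREG (log2 fold change -0.37, adjusted p = 0.0151), LTBP1 (-0.35, 0.0183) and TNC (-0.27, 0.00398), all lower, where 10.5% passed. With single libraries left out 0 to 2 members passed. MAN1A1 and LY6E passed without DMSO a, where 23.7% of genes passed, and EREG without DMSO c. Over all genes 1009 passed, 1685 with no filter, 1680 with the length trend removed, and 445 to 3916 with single libraries left out. The cause was not tested.

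Directions of EREG, TNC, LTBP1, FSCN1, LY6E and MAN1A1 were the same in every setting. KYNU turned to -0.11 with the length trend removed and ranged from -0.025 to 0.15 with single libraries left out. ROBO1 ranged from -0.11 to 0.10. Depth limits both genes, which had 31 to 60 reads per library.

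The replicate letters did not pair the libraries: deviations of same-lettered libraries correlated at 0.03, 0.02 and -0.04, and 2 of 6 libraries correlated best with their own letter. With the replicate block 0 members and 908 genes passed, and the calls of MAN1B1 and LY6K were lost.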

Other observations

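Among the DMSO libraries, DMSO a was higher than the mean of DMSO b and c for EREG, TNC, LTBP1, KYNU, ROBO1 and MAN1A1, by 8.43% (KYNU) to 36.0% (MAN1A1), and stood at -7.26% for FSCN1 and -16.8% for LY6E. FSCN1 (2777 bases) and LY6E (1419 bases) have shorter principal transcripts than EREG, TNC, LTBP1, ROBO1 and MAN1A1 (4619 bases or more). KYNU has principal transcripts of 15316 and of 1576 bases, and with the shorter one the members do not divide by length. These values of 8 genes are a description only.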
